A study of Mus musculus with 4 samples.

Results

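Gab2 and its partners carry signals from receptor tyrosine kinases into the cell. In these data 2 of the 3 Gab2 probe sets read far lower after depletion of 4.5SH, while the third did not. The set described here is 10 mouse genes, Gab1, Gab2, Grb2, Shc1, Sos1, Sos2, Ptpn11, Frs2, Irs1 and Irs2. All probe sets were taken whose array annotation gives 1 gene symbol and whose symbol is one of these. That found 21 probe sets for 9 of the 10 genes, out of 34945 probe sets with 1 symbol. No such probe set was found for Frs2, which is not analysed here. Gab2 drew attention through its own large difference between the groups, and the other genes were added as its partners with their values known. Their differences between knockdown and control are therefore a description, and no p-value is given for them.

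Neuro2A is a mouse neuroblastoma cell line, and 4.5SH is a small noncoding RNA of rodents related in sequence to B1 repeat elements. Cytoplasmic RNA was measured on 4 Affymetrix arrays, 2 from cells depleted of endogenous 4.5SH and 2 from control cells, which the labels call biological replicates. Per the labels' protocols, cells were transfected with 30 nM antisense oligonucleotides. The sources used here do not say which oligonucleotide was given to the control cells, so loss of 4.5SH and other effects of the transfected oligonucleotide cannot be told apart. The labels do not say whether replicates came from separate cultures, so no error below can be read as the spread between separate cultures. The SDs measure only the spread between these samples. The standard errors come from a fit that also draws on the spread of other probe sets of like signal. The study asked which mRNAs with an antisense B1 element depend on 4.5SH. Whether any gene named here carries one was not tested.

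When a receptor tyrosine kinase binds its ligand, it phosphorylates itself and large docking proteins on tyrosines. Gab1, Gab2, Frs2, Irs1 and Irs2 are such docking proteins. The small adaptors Grb2 and Shc1 read these phosphotyrosines, and Grb2 brings the exchange factors Sos1 and Sos2 to the membrane, where they load Ras with GTP. Ptpn11 encodes the phosphatase SHP2, which binds Gab proteins and is needed for full activation of the ERK kinases. Gab2 also binds the regulatory subunit of PI3K, the lipid kinase upstream of Akt.

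The 4 arrays were alike in median signal, 17.1 and 18.2 in the knockdown against 18 and 18.3 in the control, but mean signals were 227 and 232 against 255 and 247. The ratio of 3' to 5' signal was 2.47 and 2.49 in the knockdown against 2.60 and 2.78 in the control for Actb, and 0.833 and 0.787 against 0.884 and 0.861 for Gapdh. Over all 22525 tested probe sets, those with a mean signal of at least 16.9, the median difference was -0.11 on the log2(signal + 16) scale. It was 0.00 with quantile scaling and -0.22 with scaling to spiked-in control RNAs. Of 13 measured neuroblast and neuron markers 9 were above this limit, led by Stmn2, Uchl1 and Hand2. Their summed signal was 10030 to 10182 in the knockdown and 11128 to 11242 in the control. Stmn2, Uchl1 and Hand2 each read lower in the knockdown, but not all of these markers did. Isl1 read 128.8 and 108.7 in the knockdown against 82.7 and 102.5 in the control. The dim Gata3 read 22.5 and 20.7 against 10.5 and 10.1. Th, Dbh, Nefl and Nefm read no higher than 36.5 on any array. Of 14 measured markers of other cell types 6 were above the limit, led by Cd68 and Pecam1, with a summed signal of 541 to 603 against 984 to 1028. Most of this sum is Cd68, at 338 and 342 in the knockdown against 619 and 721 in the control. Pecam1 read 63.1 and 69.7 against 154 and 118. The other markers read at most 45.0 on any array and did not all read lower, with Mbp at 34.0 and 39.8 against 23.7 and 35.4. None of the 14 was at 0 on all arrays, and the leukocyte marker Ptprc read at most 8.1. The part of these shifts in the results below was not tested.

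Of the 21 probe sets of the adaptor genes 13 were bright enough to be tested, from 7 genes. By limma at an adjusted p below 0.05, 4 of the 13 were called lower in the knockdown and 1 higher, which is 30.8% and 7.69%. Over all tested probe sets 25.8% were called lower and 9.76% higher. Since the genes were chosen on this contrast, nothing is read from these shares. The median difference over the 13 was -0.11, the same as over all tested probe sets. The groups' arrays did not overlap in 7 of the 13 with the knockdown lower and in 1 with the knockdown higher, against 44.3% and 22.6% of all tested probe sets.

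**Figure D1:**
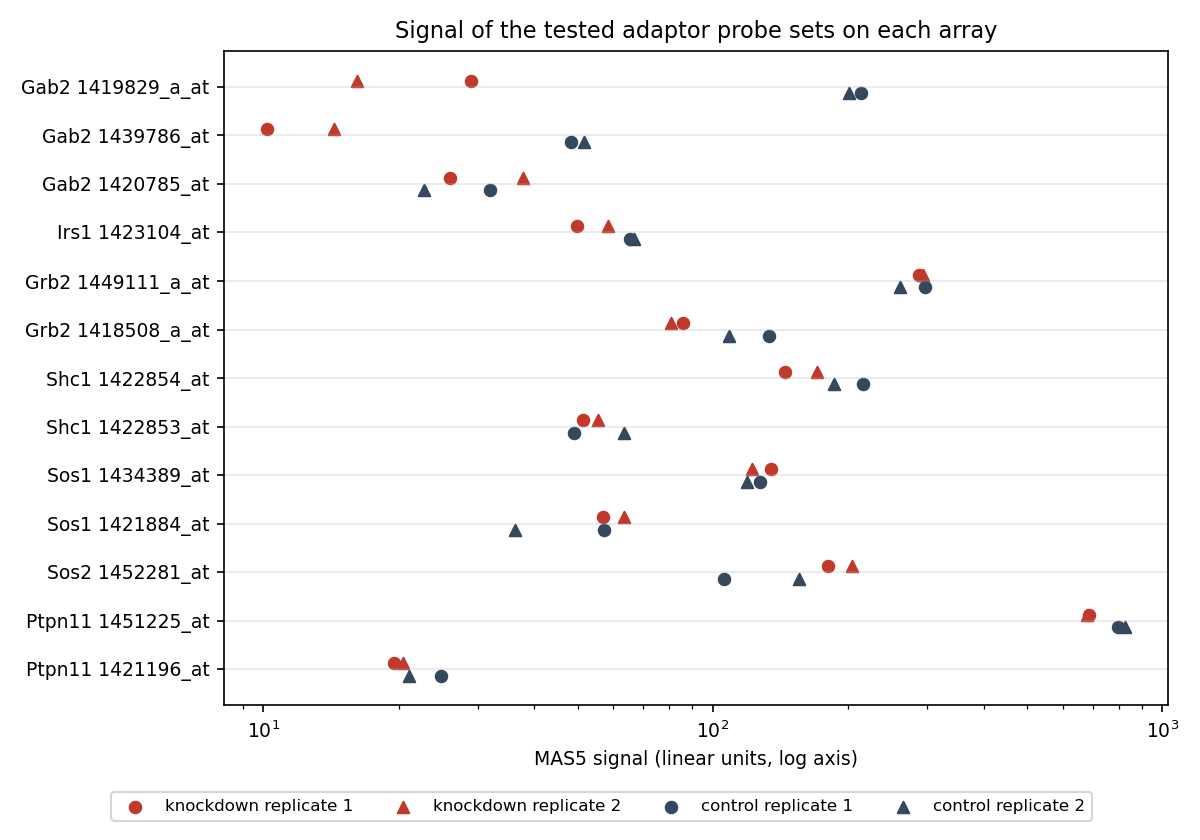
MAS5 signal (log axis) of the 13 tested probe sets of the adaptor genes on each of the 4 arrays, knockdown in red and control in dark blue. At the first Gab2 probe set the knockdown arrays read 29.0 and 16.2 and the control arrays 213 and 201, while at the third Gab2 probe set the groups overlap.

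Gab2 was measured by 3 probe sets. At the brightest, 1419829_a_at, the knockdown arrays read 29.0 and 16.2 and the control arrays 213 and 201. The groups lie far apart, and both knockdown arrays are close to the median signal of an array. Mean signals were 22.6 ± 9.05 for the knockdown and 207 ± 8.63 for the control (SD, n = 2), a ratio of 9.17. On the log2(signal + 16) scale the difference was -2.55 ± 0.18 (SE of the limma fit, as for all log2 differences here). It is the third lowest of the 22525 tested probe sets.

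The second Gab2 probe set, 1439786_at, read 10.2 and 14.4 in the knockdown against 48.4 and 51.8 in the control. Here too the groups are separate, though the control signal itself is low. Its knockdown mean of 12.3 is below the limit of 16.9, so it was tested only through its control signal. The ratio of means was 4.07 and the log2 difference -1.23 ± 0.22, which ranks 167 from the lowest. The third, 1420785_at, read 26.0 and 37.9 in the knockdown against 32.0 and 22.8 in the control. These groups overlap, with a difference of 0.14 ± 0.23. The 3 probe sets of Gab2 thus do not give a single picture. Which part or form of the transcript each one detects was not analysed here, and the deposited values carry no detection call. The suffix _a_at marks probe sets designed against several transcripts of 1 gene. In RNA pooled from many cells, fewer cells with a transcript and less of it per cell cannot be told apart.

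The size of the Gab2 difference depends on the pseudocount, since the knockdown signal is dim. At 1419829_a_at it was -3.20 with a pseudocount of 1 and -1.65 with 64, and at 1439786_at it was -1.96 and -0.58. Scaling mattered less, with -2.45 and -1.19 under quantile scaling and -2.66 and -1.34 with spike-in scaling. Both probe sets kept their call in every alternative that measured them, including those that left out an array. As 1439786_at was tested only through its control signal, its kept call is a description and adds no support. The third stayed uncalled in all of these. It was 0.32 without knockdown replicate 1 and 0.29 without control replicate 1, and turned to -0.04 without knockdown replicate 2 and to -0.01 without control replicate 2.

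**Figure D2:**
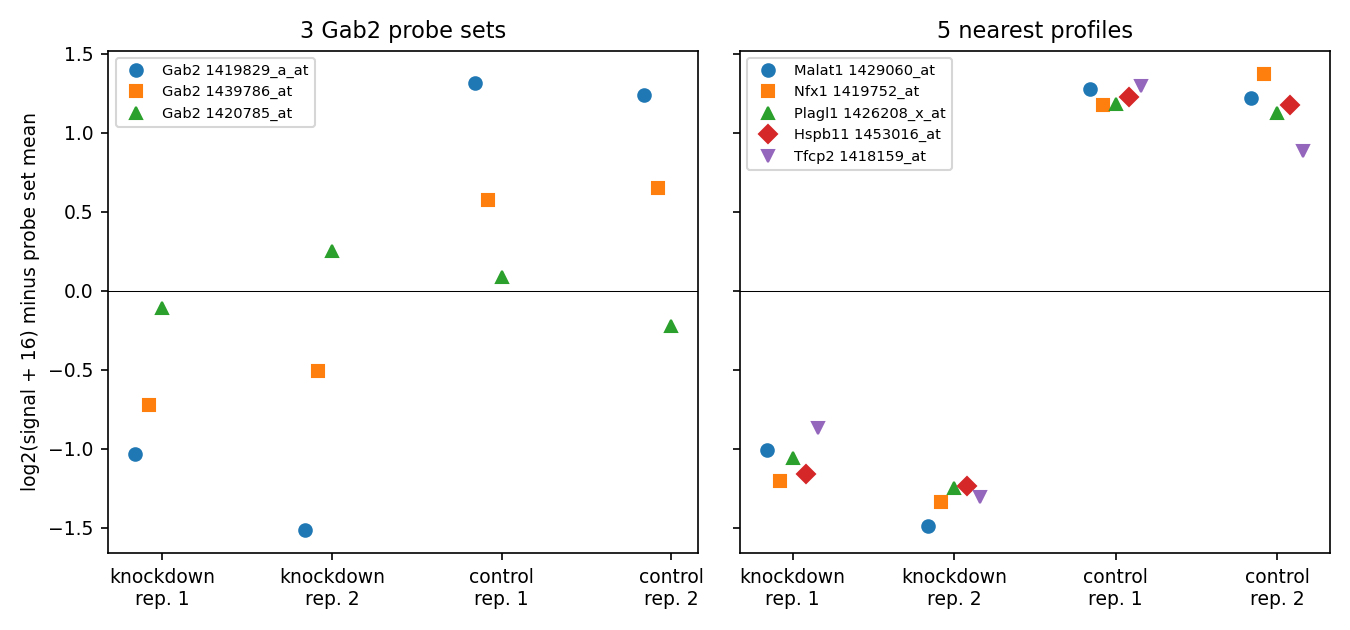
Left, the 3 Gab2 probe sets on the 4 arrays as log2(signal + 16) minus the probe set's own mean; right, the 5 probe sets of other genes nearest to the brightest Gab2 probe set. Gab2 1419829_a_at and 1439786_at lie below 0 on both knockdown arrays and above it on both control arrays, 1420785_at does not.

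The other genes with the profile nearest to that of the brightest Gab2 probe set were ranked by Euclidean distance over the 4 arrays, among 20251 tested probe sets. With 4 arrays in 2 groups, this measures mainly the size of the group difference. The nearest was Malat1, a nuclear long noncoding RNA, at a distance of 0.0558. It read 76.1 and 50.2 in the knockdown against 434 and 417 in the control, and 2 of its 5 tested probe sets were lower. Next came Nfx1, a transcription regulator, at 0.317, with a difference of -2.55 and all 4 of its tested probe sets lower. The imprinted zinc finger gene Plagl1 (0.320), the intraflagellar transport gene Hspb11 (0.327) and the transcription factor gene Tfcp2 (0.445) followed, each with 1 tested probe set. Plagl1 read 3.2 and 0.8 in the knockdown against 74.6 and 71.2 in the control. Like Gab2 1439786_at, it was tested only through its control signal. None of the 5 is a receptor kinase adaptor, but Gab2 itself was left out of the ranking. The other tested adaptor genes lay between -0.46 and 0.52, so nothing is read from this.

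Gab1, the close relative of Gab2, was too dim to be tested at any of its 3 probe sets. The brightest, 1448814_at, read 12.7 and 1.9 in the knockdown against 3.1 and 15.9 in the control. At 1417693_a_at the values were 11.8 and 0.6 against 8.6 and 11.3. At 1417694_at they were 0.4 and 1.3 against 3.1 and 7.7. The first and second of these overlap between groups, and no Gab1 value exceeds 15.9. A difference of Gab1 was not detectable at this signal, so no comparison of Gab1 with Gab2 can be made.

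The insulin receptor substrates Irs1 and Irs2, docking proteins of the insulin and IGF1 receptors, had 1 probe set each. Irs1 read 49.9 and 58.5 in the knockdown against 65.3 and 66.8 in the control. The groups do not overlap, but the difference of -0.23 ± 0.16 was not called. It was -0.15 with quantile scaling, -0.34 with spike-in scaling and -0.14 without knockdown replicate 1. Irs2 was below the limit for testing. It read 16.7 and 33.3 in the knockdown and 8.1 on both control arrays, so that the knockdown arrays read higher but differ from each other more than the controls do.

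Grb2, the adaptor that links phosphotyrosines to Sos, was measured by 2 probe sets that differ. The brighter, 1449111_a_at, read 288 and 293 in the knockdown against 296 and 260.2 in the control. These groups overlap, and the difference was 0.06 ± 0.10. It was 0.25 with quantile scaling, -0.05 with spike-in scaling and -0.03 without control replicate 2. The dimmer, 1418508_a_at, read 86.0 and 80.6 in the knockdown against 134 and 109 in the control. Here the groups do not overlap, and the difference of -0.46 ± 0.14 was called lower. That call was lost with quantile scaling (-0.34), when dim probe sets were kept in, and with no intensity trend. It was also lost without knockdown replicate 1 (-0.50), knockdown replicate 2 (-0.42) or control replicate 1 (-0.33).

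Shc1, an adaptor that recruits Grb2 to receptors, was not called at either probe set. At 1422854_at it read 145 and 171 in the knockdown against 215 and 186 in the control. The groups do not overlap, with a difference of -0.32 ± 0.13. This was called lower with spike-in scaling (-0.43), among the brightest 25% of probe sets, with the replicate block, and when control replicate 2 was left out (-0.42). It was -0.17 with quantile scaling, -0.21 without knockdown replicate 1 and -0.22 without control replicate 1, and was not called there. At 1422853_at the arrays read 51.3 and 55.4 against 49.2 and 63.5, which overlap, with a difference of -0.05 ± 0.18 that was 0.01 with quantile scaling and ran from -0.20 to 0.09 when single arrays were left out.

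Sos2, one of the exchange factors that load Ras with GTP, was the only adaptor gene with a probe set called higher. It read 180 and 204 in the knockdown against 106 and 156 in the control. The groups do not overlap, but the control arrays differ by 0.49 on the log2 scale, close to the difference between the groups of 0.52 ± 0.15. The value was 0.66 with quantile scaling. The call was lost with spike-in scaling (0.41), when dim probe sets were kept in, and with no intensity trend. It was also lost without control replicate 1 (0.28) or knockdown replicate 2 (0.44).

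Sos1, the related exchange factor, had 5 probe sets, of which 2 were tested and neither was called. The brightest, 1434389_at, read 135 and 122 in the knockdown against 127 and 119 in the control. The groups overlap, with a difference of 0.05 ± 0.13 that was 0.18 with quantile scaling, -0.06 with spike-in scaling and -0.01 without knockdown replicate 1. At 1421884_at the arrays read 57.1 and 63.5 against 57.2 and 36.3, a difference of 0.30 ± 0.19 with overlapping groups. It was 0.54 without control replicate 1 and 0.06 without control replicate 2. Of the 3 dim probe sets, 1421885_at read 17.8 and 11.5 against 2.7 and 1.3 and 1421886_at read 17.3 and 13.6 against 8.9 and 10.9. In both the knockdown arrays are higher, at signals around or below the limit for testing. At 1431311_at no array exceeded 8.7.

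Ptpn11, the SHP2 phosphatase that docks on Gab proteins, had 3 probe sets, of which 2 were tested. At 1451225_at it read 687 and 678 in the knockdown against 797 and 825 in the control. The groups are separate and their replicates close, with a difference of -0.24 ± 0.07 that was called lower. The median of all tested probe sets was -0.11 on the same scale, and with quantile scaling it was -0.07 and not called. The call was also lost without the intensity trend, and without knockdown replicate 1 (-0.25), knockdown replicate 2 (-0.23) or control replicate 2 (-0.22). The dimmer 1421196_at read 19.5 and 20.5 against 24.9 and 21.1, a difference of -0.11 ± 0.23 that was not called. The untested 1427699_a_at read 31.1 and 13.8 against 1.5 and 11.9, in the opposite direction and with wide gaps between replicates.

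**Figure D3:**
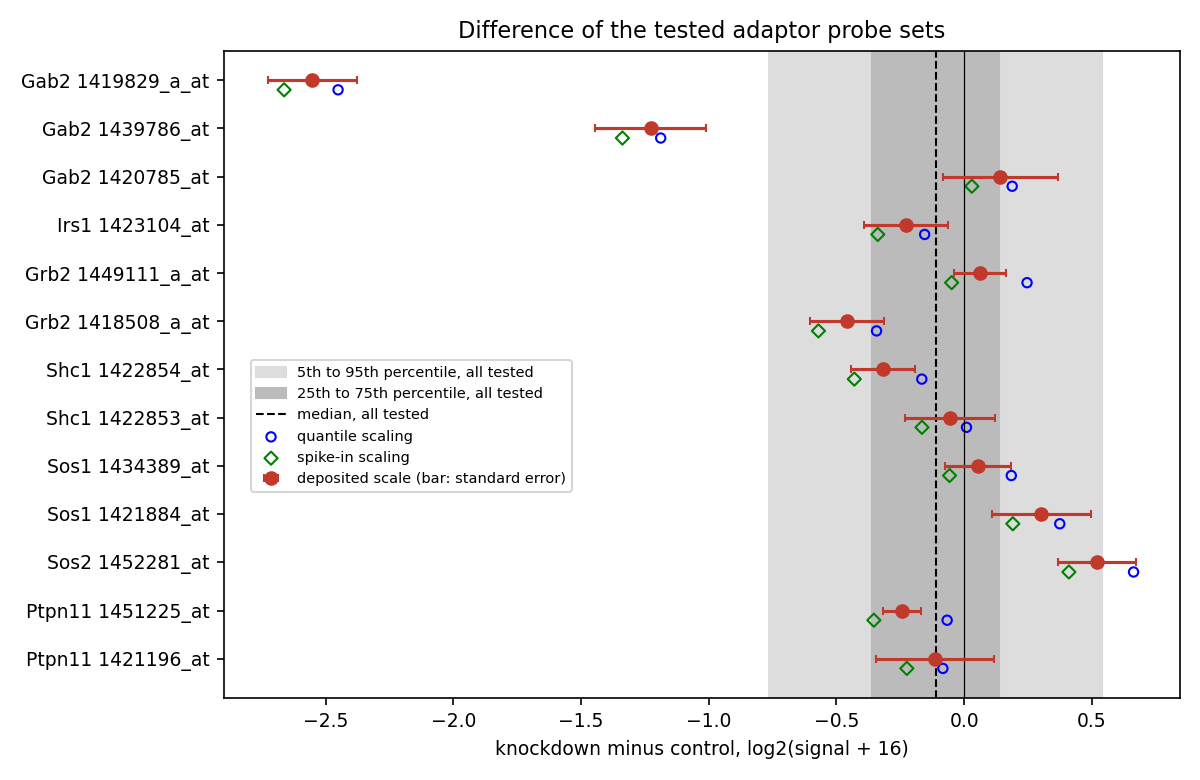
Difference between knockdown and control on the log2(signal + 16) scale for the 13 tested probe sets of the adaptor genes, with the standard error as a bar and the values under quantile and spike-in scaling beside it; grey bands give the spread of all 22525 tested probe sets. The pair of Gab2 probe sets at -2.55 and -1.23 lie below the 5th percentile of all tested probe sets, -0.76, and all the others lie inside the wide band.

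Apart from that pair of Gab2 probe sets, the 11 other tested probe sets of the adaptor genes lay between -0.46 and 0.52. That is within the 5th to 95th percentile of all tested probe sets, -0.76 to 0.54. The calls of Grb2, Sos2 and Ptpn11 each depended on the scaling and on single arrays.

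The wider receptor signalling pathway was described by 5 lists of 154 genes that hold none of the adaptor genes. A probe set with 1 symbol was found for 141 of them, and 111 were bright enough to be tested, each by its brightest tested probe set. By limma, 31 were lower in the knockdown, 8 were higher and 72 did not pass. Over all 11814 tested genes 32.9% were called lower and 8.95% higher. The median difference was -0.20 over the 5 lists and -0.17 over all tested genes. Over all 11814 tested genes 2525 were lower and 1979 higher with quantile scaling, and 4997 and 602 with spike-in scaling. In the lists 21 were lower and 12 higher with quantile scaling, and 48 and 4 with spike-in scaling. The number of higher genes was 4 without knockdown replicate 1, 3 without knockdown replicate 2 and 5 without control replicate 1.

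**Figure D4:**
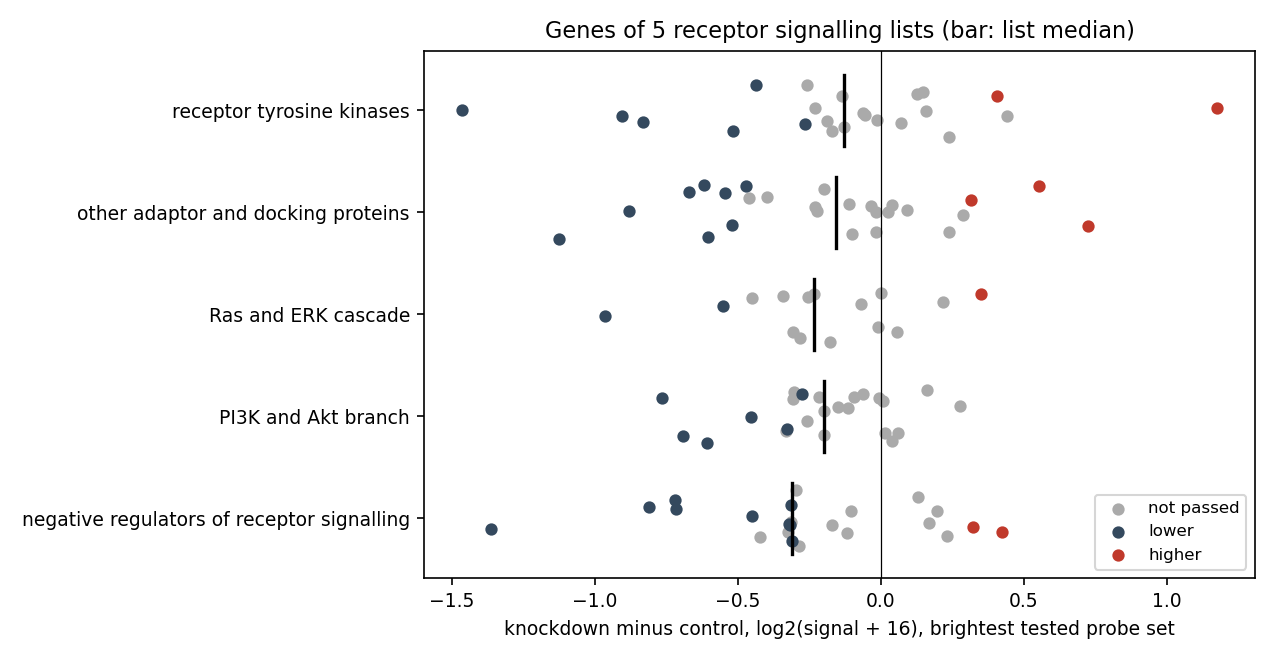
Difference between knockdown and control on the log2(signal + 16) scale for the 111 tested genes of the 5 receptor signalling lists, 1 point per gene, coloured by the limma call, with the list median as a bar. All list medians lie between -0.31 and -0.13, and the lowest points are Alk (-1.46) and Cblb (-1.36).

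Among receptor tyrosine kinases, which phosphorylate the docking proteins, 6 of 23 tested genes fell, 2 rose and 15 did not pass. The shares over all tested genes were 32.9% lower and 8.95% higher. The list's median was -0.13, against -0.17. Alk, the receptor kinase best known as a neuroblastoma oncogene, read 32.8 and 25 in the knockdown against 117 and 98.1 in the control. Its only tested probe set fell by 1.46 ± 0.17 (limma adjusted p = 2.7e-05). Fgfr1, a fibroblast growth factor receptor that signals through Frs2, fell by 0.90 ± 0.10 (limma adjusted p = 1.2e-05), with 2 of 3 tested probe sets lower. Flt4, a receptor of lymphatic endothelium, rose by 1.17 ± 0.30, but its control arrays read only 31.3 and 6.1. Ryk, a Wnt receptor without kinase activity, rose by 0.41 ± 0.14 at 1 of 3 tested probe sets. The call of Flt4 was lost without knockdown replicate 1 (limma adjusted p = 0.0707), with dim probe sets kept in (0.114) and with no intensity trend (0.0808), and its difference was 0.63 without control replicate 2. It was 1.93 with a pseudocount of 1 and 0.57 with 64. The call of Ryk was lost without knockdown replicate 2 (limma adjusted p = 0.432), where its difference was 0.15, or control replicate 1 (0.146), with spike-in scaling (0.121), with dim probe sets kept in (0.193) and with no intensity trend (0.182). Without knockdown replicate 1 the difference of Ryk was 0.66.

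Of the other adaptor and docking proteins 8 of 26 tested genes fell, 3 rose and 15 did not pass. The shares over all tested genes were 32.9% lower and 8.95% higher. The list's median was -0.16, against -0.17. The count of higher genes was 1 without knockdown replicate 1 and 1 without knockdown replicate 2. Lat, a docking protein of T cells, read 103 and 98.3 in the knockdown against 289 and 197 in the control. It fell by 1.13 ± 0.15 (limma adjusted p = 7.91e-05). Lat2, its relative of B cells and mast cells, fell by 0.88 ± 0.13 at 1 of 3 tested probe sets. Both are known from leukocytes, whose marker Ptprc read at most 8.1, while the myeloid marker Cd68 read 338 and 342 in the knockdown against 619 and 721 in the control. What gives rise to the Cd68 signal, and whether it has a part in these falls, was not tested. Sh3kbp1, which binds Cbl and takes part in receptor endocytosis, rose by 0.72 ± 0.13 (limma adjusted p = 0.000608), with 2 of 4 tested probe sets higher. Its relative Cd2ap rose by 0.55 ± 0.15 at 1 of 3 tested probe sets, a call lost without knockdown replicate 1 (limma adjusted p = 0.0578), knockdown replicate 2 (0.0666) or control replicate 1 (0.138), with dim probe sets kept in (0.103) and with no intensity trend (0.0978). Without control replicate 1 the difference of Cd2ap was 0.29.

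In the Ras and ERK cascade 2 of 15 tested genes fell, 1 rose and 12 did not pass. The shares over all tested genes were 32.9% lower and 8.95% higher. The list's median was -0.23, against -0.17. With spike-in scaling 7 of the 15 fell, and with quantile scaling 3 rose. These counts moved in the same directions as those over all tested genes. Rasa3, a GTPase-activating protein that turns Ras and Rap off, read 300 and 261 in the knockdown against 621 and 508 in the control. It fell by 0.96 ± 0.11 (limma adjusted p = 1.75e-05). Rras2, a GTPase related to Ras, fell by 0.55 ± 0.12 at 1 of 2 tested probe sets. Rasa1, the Ras GTPase-activating protein that binds receptors, rose by 0.35 ± 0.08 (limma adjusted p = 0.00255) with all 3 tested probe sets higher, but did not pass with no intensity trend (limma adjusted p = 0.0676).

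In the PI3K and Akt branch 6 of 24 tested genes fell, none rose and 18 did not pass. The shares over all tested genes were 32.9% lower and 8.95% higher. The list's median was -0.20, against -0.17. With quantile scaling 3 of the 24 fell and 1 rose, and with spike-in scaling 11 fell. These counts moved in the same directions as those over all tested genes. Without control replicate 1 the count of lower genes was 3. Pik3cd, a catalytic subunit of PI3K best known in leukocytes, read 83.3 and 71.4 against 165 and 123 and fell by 0.76 ± 0.16, at 1 of 3 tested probe sets. Inppl1, the lipid phosphatase SHIP2, read 352 and 367 against 625 and 559 and fell by 0.69 ± 0.09 (limma adjusted p = 5.32e-05).

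Of the negative regulators of receptor signalling 9 of 23 tested genes fell, 2 rose and 12 did not pass. The shares over all tested genes were 32.9% lower and 8.95% higher. The list's median was -0.31, against -0.17. With quantile scaling 5 of the 23 fell and 3 rose, and the list's median was -0.15, against -0.04 over all tested genes. With spike-in scaling 12 fell and 0 rose. These counts moved in the same directions as those over all tested genes. Cblb, a ubiquitin ligase that marks activated receptors for degradation, read 34.4 and 27.7 in the knockdown against 137 and 79.4 in the control. It fell by 1.36 ± 0.21 (limma adjusted p = 0.000213), with both tested probe sets lower. Dusp4, a phosphatase that inactivates ERK in the nucleus, fell by 0.81 ± 0.09 (limma adjusted p = 1.42e-05). Spred1 and Spry4, inhibitors of Ras activation, rose by 0.32 ± 0.10 and 0.42 ± 0.15, at 1 of 6 and 1 of 2 tested probe sets. Both calls were lost with spike-in scaling (limma adjusted p = 0.171 and 0.102) and without knockdown replicate 2 (0.191 and 0.117). They were also lost with dim probe sets kept in (limma adjusted p = 0.0759 and 0.131) and with no intensity trend (0.0943 and 0.0708). That of Spred1 was also lost without control replicate 1 (0.149), and that of Spry4 without knockdown replicate 1 (0.159) or control replicate 2 (0.214).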

How the data were processed

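The authors deposited linear intensities made with MAS5, per the submitters' processing notes, with 1 signal for each probe set and array. Its version, scaling target and detection calls were not given in the sources used here. Biotinylated cRNA came from 200 ng of poly(A)+ RNA, per the labels' protocols. Of 45101 probe sets 64 controls were left out. Of the other 45037, 34945 had 1 symbol, 932 several and 9160 none, and 34741 took their current symbol from a RefSeq table through the Entrez identifier.

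Signals were taken as log2(signal + 16) with no further scaling. With this pseudocount log2 differences understate changes at dim probe sets. Probe sets with a mean over all 4 arrays at or above the median, 16.9, entered a two-sided limma fit (version 3.58.1, R 4.3.3; lmFit and trended eBayes) with 13.6 degrees of freedom in total. P-values were adjusted by Benjamini-Hochberg over 22525 probe sets, with a threshold of 0.05. An exact permutation test of 2 against 2 arrays cannot go below 0.333. The number of arrays limits the precision. On data simulated for this comparison over 22525 probe sets, 85 of 100 changes of a log2 of 1, 41 of 100 of 0.5 and 20 of 22325 unchanged probe sets were called. The simulated noise was normal and set by signal alone, and far fewer probe sets changed than were called in the data. These rates need not hold for the arrays themselves.

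The genes, lists and rules were chosen with earlier results of these data known. The rule for named genes took all probe sets of the adaptor genes, the 2 largest rises and 2 largest falls among called genes of each of 5 lists, and the 5 nearest profiles to Gab2. Results were recomputed with a pseudocount of 1 or 64, with quantile, median or spike-in scaling (9 probe sets), without the filter or with only the brightest 25%, without an intensity trend, with a replicate block, with the mean of a gene's probe sets for the lists, and without each array in turn. Plots used matplotlib 3.10.9 (Python 3.11.15).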

Additional observations from a re-analysis of the deposited data

How the results depend on the processing

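Over all tested probe sets 2199 were called higher and 5811 lower. The counts were 3823 and 3758 with quantile scaling, 1309 higher and 7757 lower with spike-in scaling, 1241 higher without the filter, and 1354 and 3778 without the intensity trend. Leaving out single arrays gave 1200 to 1976 higher and 4297 to 5265 lower; the lowest count of higher ones, 1200, came without knockdown replicate 2. Among probe sets of the adaptor genes, 1 higher and 4 lower in the fit as reported, 2 were lower with quantile scaling, both of Gab2. Among the brightest 25% 2 others were lower, Shc1 1422854_at and Ptpn11 1451225_at, and no Gab2 probe set was bright enough to be tested. None was higher and 5 were lower with spike-in scaling, 0 were higher and 3 lower without the filter, and 0 higher and 2 lower without the intensity trend. Leaving out single arrays gave 0 to 1 higher and 2 to 4 lower. Over the 5 pathway lists 4 genes were higher and 48 lower with spike-in scaling, 2 higher without the filter, and 1 higher and 19 lower without the intensity trend, with 3 to 6 higher and 23 to 31 lower when single arrays were left out. Without the intensity trend 3 genes of the PI3K and Akt branch and 3 negative regulators were lower, and among the brightest 25% 6 genes of the Ras and ERK cascade and 3 receptor kinases were. With the mean of a gene's probe sets 6 genes were higher and 30 lower over the 5 lists: 1 receptor kinase, 2 of the Ras and ERK cascade, 1 of the PI3K and Akt branch and 0 negative regulators were higher. With a pseudocount of 64 the differences of Alk and Cblb were -0.89 and -0.84. For the brightest 25% fewer probe sets were tested; the cause of the other moves was not tested. Of the probe sets named in the text, the only ones whose directions were compared, no called one changed its direction in an alternative that measured it. Deviations of same-numbered arrays from their group means correlated at 0.01. The values thus show no pairing by replicate number, but this check cannot exclude that same-numbered samples were handled together. With the number as a replicate block 2399 probe sets were higher and 6123 lower, and 1 and 5 of the adaptor genes. Where an array was left out, the lone array of its group was assumed to vary like the others. Signals near the limit for testing set how far Gab1, Irs2 and the dim Sos1 probe sets can be compared.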
